A study of Mus musculus with 2 samples.

Results

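Axon guidance ligands and receptors are the genes examined here, in RNA from the ventral midbrain of adult mice. They were chosen by symbol as semaphorins of classes 3 to 7, plexins, neuropilins, ephrins, Eph receptors, Slits, Robos, netrins, netrin-Gs, Unc5 receptors and Dcc. Of 31252 gene rows, 72 matched, and 71 of them are ligands (37) or receptors (34). The other row, Plxna4os1, is an RNA antisense to Plxna4, had 2 and 3 counts and was set aside. With a minimum of 10 counts, averaged over both libraries, 68 of the 71 genes could be compared. Efna4 (4 and 3 counts), Epha1 (7 and 3) and Ntn5 (0 and 1) fell under it, and no fold change is given for them.

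There were 2 libraries of polyadenylated RNA, 1 per genotype, from mice of 2 months on an incipient congenic C57BL/6 background. Both genotypes carried Slc6a3-Cre, in which the dopamine transporter gene drives Cre recombinase, so that recombination is aimed at dopaminergic (DA) neurons. The OE genotype also carried CAG-S-COUP-TFII, a COUP-TFII transgene at ROSA26 that stays silent until Cre acts, and the Ctrl genotype did not. The breeding scheme in the study's methods gives the littermates a ROSA26-tdTomato reporter and a floxed Tfam allele as well, but it does not say whether the sequenced mice came from that cross. The study used mice of either sex, but the sex and number of mice behind each library are not given in the sources used here.

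The total was 16984336 estimated counts in the Ctrl-labelled library and 21326632 in the OE-labelled one, and 0.310% and 0.301% of them fell on guidance genes. Nr2f2, the gene of COUP-TFII, goes against the labels, with 637 counts in the Ctrl-labelled library and 377 in the other, a log2 fold change of -1.07 (95% interval -1.26 to -0.88). Every fold change is therefore given as the OE-labelled over the Ctrl-labelled library, and no direction is tied to COUP-TFII. The labels call the cell type dopaminergic neurons, but the tissue held other cells, since the oligodendrocyte gene Mbp had 128974 and 139810 counts. The libraries also differed in cell type markers, in lists that were chosen with earlier results of these data known. All 14 markers of DA neurons were higher in the OE-labelled library (log2 0.79 to 2.00, median 1.35), and 13 of 14 thalamus markers were lower (median -2.10). Of these, Gbx2 had 29.88 and 0 counts, and the exception was Amotl1 at 0.22. In bulk tissue, a different number of cells of a type and a different amount of RNA per cell cannot be told apart.

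Growing axons steer by pairs of cues and receptors on the growth cone, and in the adult brain the same proteins act at synapses, on glia and in blood vessels. Netrins attract through Dcc and repel through Unc5 receptors. Slits repel through Robos, semaphorins signal through plexins with neuropilins as co-receptors, and ephrins signal with Eph receptors from cell to cell. Midbrain DA axons are known to use several of these systems on their way to the striatum.

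COUP-TFII is a nuclear receptor, and receptors of its class recognise the letters AGGTCA. RefSeq promoters (GRCm38.p6, 250 bases before to 50 after the start) matched 61 of the 71 genes, with 77 promoters. AGGTCA, searched on both strands, was found in 11 of the 77, or 14.3%, against 16.3% of all 32851 promoters of that length. A direct repeat of it with 1 base between was in 0 of 77 and in 0.0396% of all promoters. Among the 29 genes that differed between the libraries by more than log2 0.2 with a counting interval clear of 0, 23 had a promoter. Ntn1, Dcc, Slit1, Sema3b, Sema3f and Sema6a had none in this set and could not be searched. Of the 23, 4 held the motif. This counts genes, not promoters, and the matching share over all genes was not computed. The windows of 60 bases round it are shown for these 4 because the motif's orientation and surroundings can be compared there. They are written 5′ to 3′ on the gene's strand, with the motif, or its reverse complement TGACCT, in capitals.
Plxnd1: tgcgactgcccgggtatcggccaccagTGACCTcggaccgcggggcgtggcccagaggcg
Robo4: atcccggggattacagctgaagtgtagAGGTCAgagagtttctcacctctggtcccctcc
Sema5a: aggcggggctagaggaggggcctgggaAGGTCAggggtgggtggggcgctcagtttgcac
Sema6b: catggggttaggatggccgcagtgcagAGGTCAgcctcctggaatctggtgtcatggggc

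The windows lie at chr6:115995076-115995135 on the minus strand (Plxnd1), chr9:37401836-37401895 on the plus strand (Robo4), chr15:32244647-32244706 on the plus strand (Sema5a) and chr17:56133984-56134043 on the minus strand (Sema6b). Counted from the start, the motif begins at -103, -109, -139 and -164 in that order. Plxnd1, Robo4 and Sema5a were lower in the OE-labelled library and Sema6b was higher, so the higher side rests on Sema6b alone. For Sema6b the motif is in a promoter inside the gene (chr17:56133803-56134102). The promoter at its 5′ end (chr17:56140294-56140593) lacks it. A match of letters is a description and does not show binding.

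Guidance genes differed between the libraries in both directions, and their median lay near 0. Over the 68 genes the median log2 fold change was -0.031, against 0.0046 over all 15246 genes with at least 10 counts. By more than log2 0.2, the threshold of the study's methods, 18 guidance genes (26.5%) were higher in the OE-labelled library and 18 (26.5%) were lower. Over all genes, 17.9% were higher and 16.6% were lower by as much. Where the 95% counting interval also had to exclude 0, 16 guidance genes (23.5%) were higher and 13 (19.1%) lower, against 9.90% and 9.16% of all genes. Guidance genes had more counts (median 711 per gene, against 415), which narrows their intervals. With 1 library per group no difference has a replicate check. Intervals reflect counting error alone, so they compare a pair of libraries, and genotype cannot be told apart from the piece of tissue taken.

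**Figure D1:**
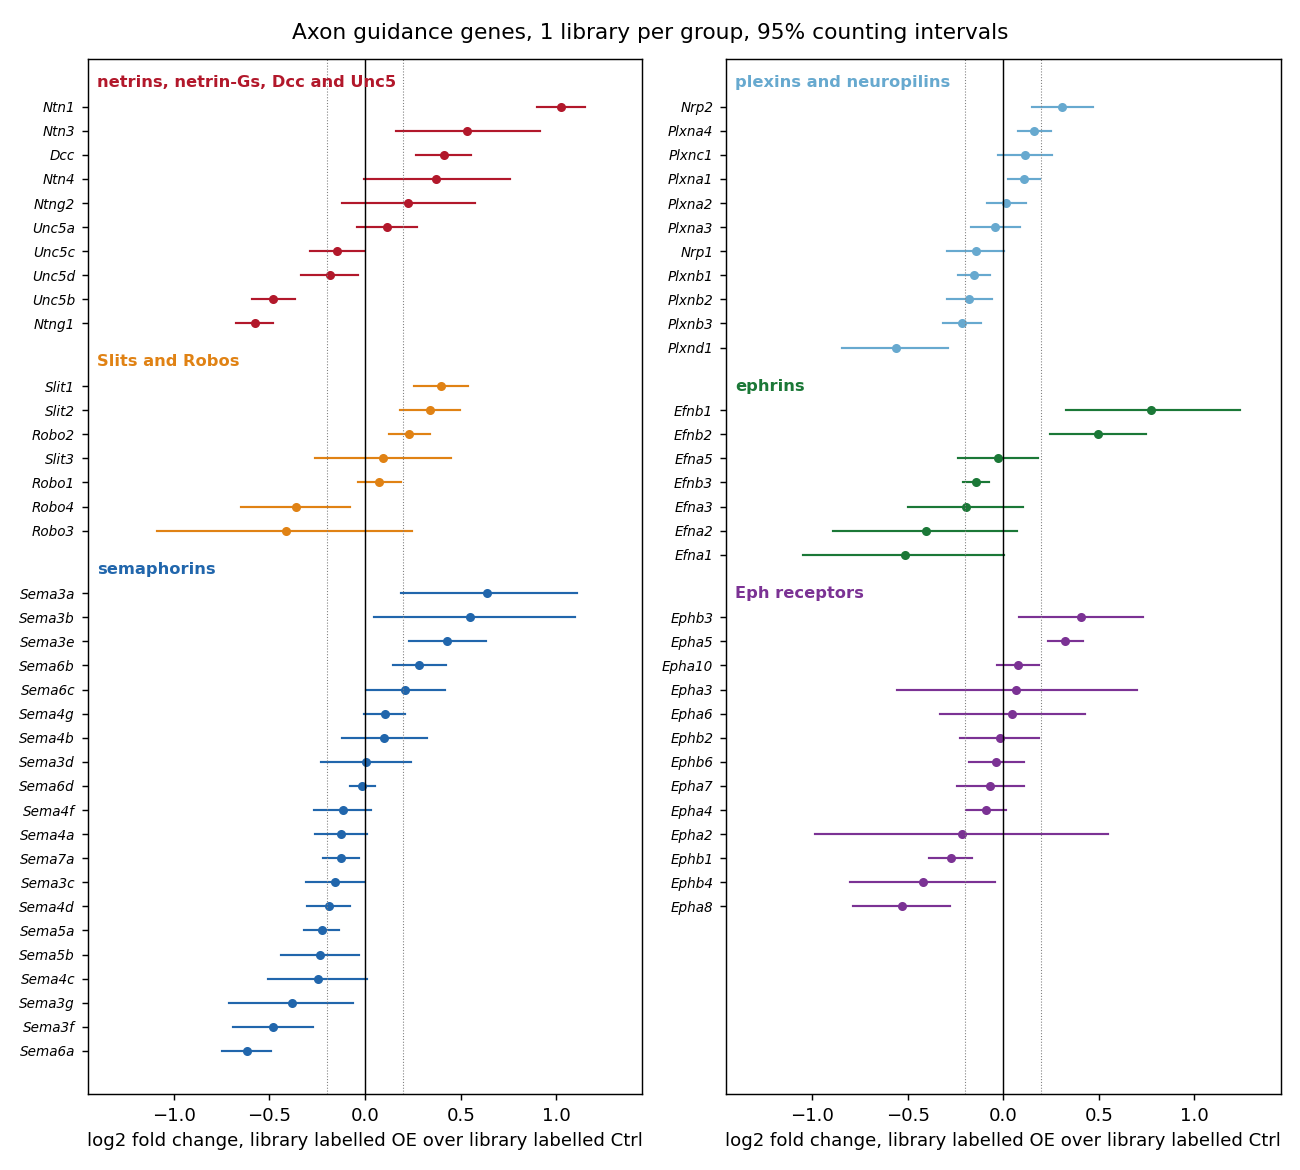
Log2 fold change (x axis, OE-labelled over Ctrl-labelled library) of the 68 guidance genes, by family and sorted within it, with 95% counting intervals as bars and dotted lines at log2 0.2 on either side. Ntn1 stands alone above 1, and each family has genes on both sides of 0.

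Larger differences were few. Above log2 0.5 stood 5 guidance genes (7.35%, against 5.59% of all genes), and as many were below -0.5 (7.35%, against 5.03%). Of these, 9 had an interval clear of 0. Ntn1, Efnb1, Sema3a, Sema3b and Ntn3 were higher in the OE-labelled library, and Sema6a, Ntng1, Plxnd1 and Epha8 were lower. Of the 9, 6 are ligands (Ntn1, Ntn3, Efnb1, Sema3a, Sema3b and Sema6a), 1 is a membrane-anchored ligand of synapses (Ntng1), and Plxnd1 and Epha8 are receptors. Ligands as a group had a median of -0.014, with 13 of 35 (37.1%) higher and 9 (25.7%) lower by more than log2 0.2. Receptors had a median of -0.042, with 5 of 33 (15.2%) higher and 9 (27.3%) lower. The share of receptors that were higher was near the 17.9% of all genes, and the difference between ligands and receptors was not tested.

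**Figure D2:**
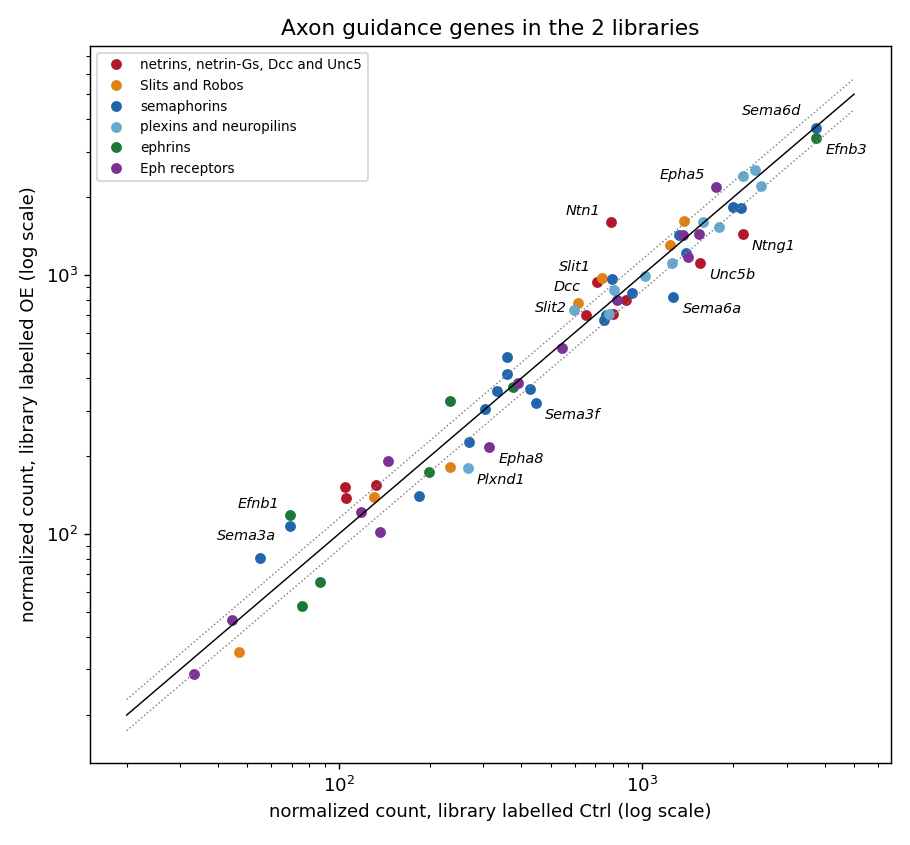
Normalized counts of the 68 guidance genes in the Ctrl-labelled library (x axis) and the OE-labelled library (y axis), both on log scales, coloured by family. The solid line marks equal values and the dotted lines a log2 fold change of 0.2. Ntn1 lies farthest above the line among abundant genes, and Ntng1, Unc5b and Sema6a lie below it.

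Ntn1 had the largest fold change of the compared guidance genes. It encodes netrin-1, the secreted cue that attracts axons through Dcc, and lies at chr11:68209364-68386826 (GRCm38.p6). Its counts were 707 in the Ctrl-labelled library and 1786 in the OE-labelled one, or 788 and 1602 normalized counts, a 2.03-fold difference (log2 1.02, interval 0.90 to 1.15). The other secreted netrins were also higher. Ntn3 (chr17:24203831-24209387) had 105 and 152 normalized counts (log2 0.53, interval 0.16 to 0.91). Ntn4, which binds laminin in basement membranes, had 106 and 137 (log2 0.37), and its interval of -0.0044 to 0.76 just included 0. The log2 fold change of Ntn1 was larger than that of Ntn3 by 0.49 (interval 0.089 to 0.89). Here and below, the pairs of genes compared were chosen after their values were seen. Their intervals give the size of a gap and do not test it.

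Netrin receptors were split. Dcc, the attractive receptor, had 637 and 1052 counts, or 710 and 944 normalized counts, and was higher by log2 0.41 (interval 0.27 to 0.55). Unc5b, a repulsive receptor also known from vessels, went the other way, with 1555 and 1115 normalized counts (log2 -0.48, interval -0.59 to -0.37). The other Unc5 genes were within the threshold. Unc5a had 651 and 704 normalized counts (0.11, interval -0.043 to 0.27), Unc5c 886 and 800 (-0.15, interval -0.29 to -0.0074) and Unc5d 801 and 705 (-0.18, interval -0.33 to -0.037). The intervals of Unc5c and Unc5d thus lay below 0, as that of Unc5b did. Differences between the log2 fold changes of a pair of genes do not depend on scaling. The fold change of Dcc lay above that of Unc5b by 0.89 on this scale (interval 0.71 to 1.07), although Dcc had fewer normalized counts than Unc5b in both libraries. The fold change of Ntn1 lay above that of Dcc by 0.61 (interval 0.42 to 0.81) and above that of Unc5b by 1.50 (interval 1.33 to 1.67).

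The netrin-Gs are lipid-anchored relatives of netrins that bind partners on the facing membrane of a synapse, and Ntng1 is known from thalamic axons. Ntng1 (chr3:109780050-110149972) had 1924 and 1604 counts, or 2145 and 1439 normalized counts, and was lower in the OE-labelled library (-0.58, interval -0.67 to -0.48). Ntng2 had 132 and 155 normalized counts (0.23, interval -0.12 to 0.58). Their log2 fold changes differed by 0.80 (interval 0.44 to 1.17). Thalamus markers were lower in the same library in 13 of 14 cases, with a summed level of 17609 normalized counts in the Ctrl-labelled and 9507 in the OE-labelled library, and their part in the value of Ntng1 was not tested. The summed level of DA markers, 21475 and 55384 normalized counts, moved in the direction of Ntn1 and Dcc, and its part was not tested either.

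Slits are large secreted repellents. All 3 had fold changes above 0. Slit1 had 662 and 1084 counts, or 738 and 972 normalized counts (0.40, interval 0.26 to 0.54), and Slit2 had 615 and 779 normalized counts (0.34, interval 0.18 to 0.50). Slit3 had 130 and 139 (0.092, interval -0.26 to 0.45), a difference that was not detectable at this depth. Thus the 2 more abundant Slits were higher in the OE-labelled library.

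Of their receptors, Robo2 was higher and Robo1 was not past the threshold. Robo2 had 1373 and 1612 normalized counts (0.23, interval 0.13 to 0.34), and Robo1 had 1241 and 1306 (0.074, interval -0.039 to 0.19). Their log2 fold changes were 0.16 apart, with an interval of 0.0012 to 0.31 that barely excluded 0. The log2 fold change of Slit1 was larger than that of Robo1 by 0.32 (interval 0.14 to 0.51), while the fold changes of Slit2 and Robo2 were not separated (difference 0.11, interval -0.081 to 0.30). Robo4, the Robo of vascular endothelium, had 233 and 181 normalized counts (-0.36, interval -0.65 to -0.076). Its neighbour Robo3, 2 kb away on chromosome 9, had 42 and 39 counts (-0.41, interval -1.09 to 0.24), too few to separate from 0. Endothelial markers had a median of -0.18, with 9 of 10 below 0 and a summed level of 7404 and 6701 normalized counts, and their part in Robo4 was not tested.

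Semaphorins made up 20 of the genes, all above the count minimum. They act mostly as repellents, secreted in class 3 and bound to the membrane in the others. Their median was -0.12, with 5 (25%) higher and 6 (30%) lower by more than log2 0.2, against 17.9% and 16.6% of all genes. Of the 7 in class 3, 3 (42.9%) were higher, 2 (28.6%) lower and 2 within the threshold, in a small set. Sema3a, the founding repellent (chr5:13124822-13603485), had 62 and 120 counts, or 69.1 and 108 normalized counts (0.64, interval 0.19 to 1.11). Sema3e had 359 and 484 normalized counts (0.43, interval 0.23 to 0.63).

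Sema3b and Sema3f, 72.3 kb apart on chromosome 9, went in opposite directions. Sema3b (chr9:107597674-107609241) had 55.1 and 80.7 normalized counts (0.55, interval 0.046 to 1.10), and Sema3f (chr9:107681499-107710475) had 448 and 321 (-0.48, interval -0.69 to -0.27). Their log2 fold changes differed by 1.04 (interval 0.48 to 1.62). The count of Sema3b in the Ctrl-labelled library, 49.43, is not whole, so some of its reads were shared out between genes. Among the other class 3 genes, Sema3g was lower (-0.38, interval -0.71 to -0.061), and Sema3c (-0.16) and Sema3d (0.0034) were within the threshold.

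Of the 13 membrane-bound semaphorins, 2 (15.4%) were higher and 4 (30.8%) lower by more than log2 0.2, against 17.9% and 16.6% of all genes. Sema6a, a transmembrane cue that binds class A plexins, had the lowest value of all compared guidance genes. Its counts were 1138 and 921, or 1268 and 826 normalized counts (-0.62, interval -0.75 to -0.49). Sema6d, more abundant, hardly differed, with 3745 and 3709 normalized counts (-0.014, interval -0.080 to 0.052). Its log2 fold change was higher than that of Sema6a by 0.60 (interval 0.46 to 0.75). Sema6b (0.28, interval 0.14 to 0.42) and Sema6c (0.21, interval 0.0024 to 0.42) were higher. Both class 5 genes were lower, Sema5a with 2121 and 1814 normalized counts (-0.23, interval -0.32 to -0.13) and Sema5b with 427 and 362 (-0.24, interval -0.44 to -0.031).

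Class 4 semaphorins stayed near the line. They ranged from -0.25 for Sema4c, with an interval of -0.51 to 0.012, to 0.10 for Sema4g. Of the 6, 5 (83.3%) were within the threshold, against 65.5% of all genes. Sema4d, which oligodendrocytes are known to make, had 1394 and 1223 normalized counts (-0.19, interval -0.30 to -0.078). Sema7a, the lipid-anchored member, had 1993 and 1827 (-0.13, interval -0.22 to -0.033). All 12 oligodendrocyte markers were lower in the OE-labelled library, with a median of -0.32 and a summed level of 386343 and 323211 normalized counts. Their part in Sema4d, Sema6a and Plxnb3 was not tested.

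Of the plexins and neuropilins, 8 of 11 (72.7%) were within the threshold, against 65.5% of all genes. The class A plexins, partners of class 3 and class 6 semaphorins, ranged from -0.042 (Plxna3) to 0.16 (Plxna4). Plxna1 (2356 and 2541 normalized counts) and Plxna4 (2149 and 2405) had intervals above 0 without passing log2 0.2. All 3 class B plexins had intervals below 0, and Plxnb3, known from oligodendrocytes, had 1788 and 1539 normalized counts (-0.22, interval -0.32 to -0.12) and was past the threshold. Plxnc1, the receptor of Sema7a, had 810 and 876 (0.11, interval -0.027 to 0.25).

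Plxnd1, the receptor of Sema3e and best known from endothelium, was the plexin farthest from 0 (chr6:115954811-115995339). It had 239 and 201 counts, or 266 and 180 normalized counts (-0.56, interval -0.84 to -0.29), so Sema3e and its receptor went in opposite directions, with log2 fold changes 0.99 apart (interval 0.65 to 1.34). The neuropilins also parted. Nrp2, which binds Sema3f, had 595 and 737 normalized counts (0.31, interval 0.15 to 0.47), and Nrp1, which binds Sema3a, had 779 and 705 (-0.14, interval -0.29 to 0.0051). Their log2 fold changes were 0.45 apart (interval 0.23 to 0.67).

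The transmembrane ephrin-B genes Efnb1 and Efnb2 were higher in the OE-labelled library. Efnb1 (chrX:99136061-99149022) had 62 and 132 counts, or 69.1 and 118 normalized counts (0.77, interval 0.33 to 1.24), and Efnb2 had 232 and 327 (0.49, interval 0.24 to 0.75). Efnb3, the most abundant ephrin, had 3750 and 3396 (-0.14, interval -0.21 to -0.076). The log2 fold change of Efnb1 was larger than that of Efnb3 by 0.92 (interval 0.47 to 1.38). The lipid-anchored ephrin-A genes were all below 0, from -0.51 (Efna1) to -0.028 (Efna5), but the intervals of all 4 included 0. Efna1, Efna3 and Efna4 lie next to each other on chromosome 3, with gaps of 32.9 and 10.5 kb. Of these, Efna1 had 75.8 and 52.9 normalized counts (interval -1.05 to 0.0065) and Efna3 had 198 and 173 (-0.20, interval -0.50 to 0.11).

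Among Eph receptors, 13 of 14 could be compared, with a median of -0.035. Epha5 and Ephb3 were higher, and Epha8, Ephb4 and Ephb1 were lower with an interval clear of 0. Epha5, which binds ephrin-A ligands, had 1573 and 2447 counts, or 1753 and 2195 normalized counts (0.32, interval 0.23 to 0.42). Epha8 (chr4:136929419-136956859) had 281 and 242 counts, or 313 and 217 normalized counts (-0.53, interval -0.78 to -0.28), while Ephb2, 93.1 kb away, had 389 and 384 (-0.019). The log2 fold changes of Epha5 and Epha8, the highest and lowest of the compared EphA genes, were 0.85 apart (interval 0.58 to 1.12).

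For the EphB genes, Ephb3 had 145 and 192 normalized counts (0.40, interval 0.085 to 0.73) and Ephb1 had 1422 and 1175 (-0.28, interval -0.39 to -0.16). Their log2 fold changes were 0.68 apart (interval 0.34 to 1.03). Ephb4, the venous partner of Efnb2, had 137 and 102 (-0.42, interval -0.80 to -0.043), opposite to its ligand. The part of the endothelial markers in Ephb4, Plxnd1 and Unc5b was not tested. Epha4, the broadly binding receptor, had 1538 and 1446 (-0.089, interval -0.19 to 0.016), and Epha10 and Ephb6, whose kinase domains are inactive, were within the threshold too (0.077 and -0.035). Epha2, with 30 and 32 counts, had an interval that included 0 (-0.22, interval -0.99 to 0.55).

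Levels of different genes were compared as normalized counts per kb of the longest annotated transcript, which all 68 genes had. Efnb3 was the highest guidance gene in both libraries (1178 and 1067 per kb), followed by Sema7a (604 and 554) and Sema6d (581 and 576), whose levels per kb lay close together. By the mean of both libraries Ntng1 came next (384 and 258). By these levels Efnb3 was far above Efna5 (93.4 and 91.7 per kb), the second ephrin. In the netrin family Ntn1 went from 134 per kb, below Unc5b (265) and Unc5a (163), to 273, above Unc5b (190) and Ntng1. Robo2 and Robo1 were alike in the Ctrl-labelled library (160 and 164 per kb), and Slit1 was the highest Slit in both (130 and 171). The low end held Epha2, Epha3 and Robo3, all under 10 per kb in both libraries, with 30 to 52 counts each, so their order is uncertain.

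**Figure D3:**
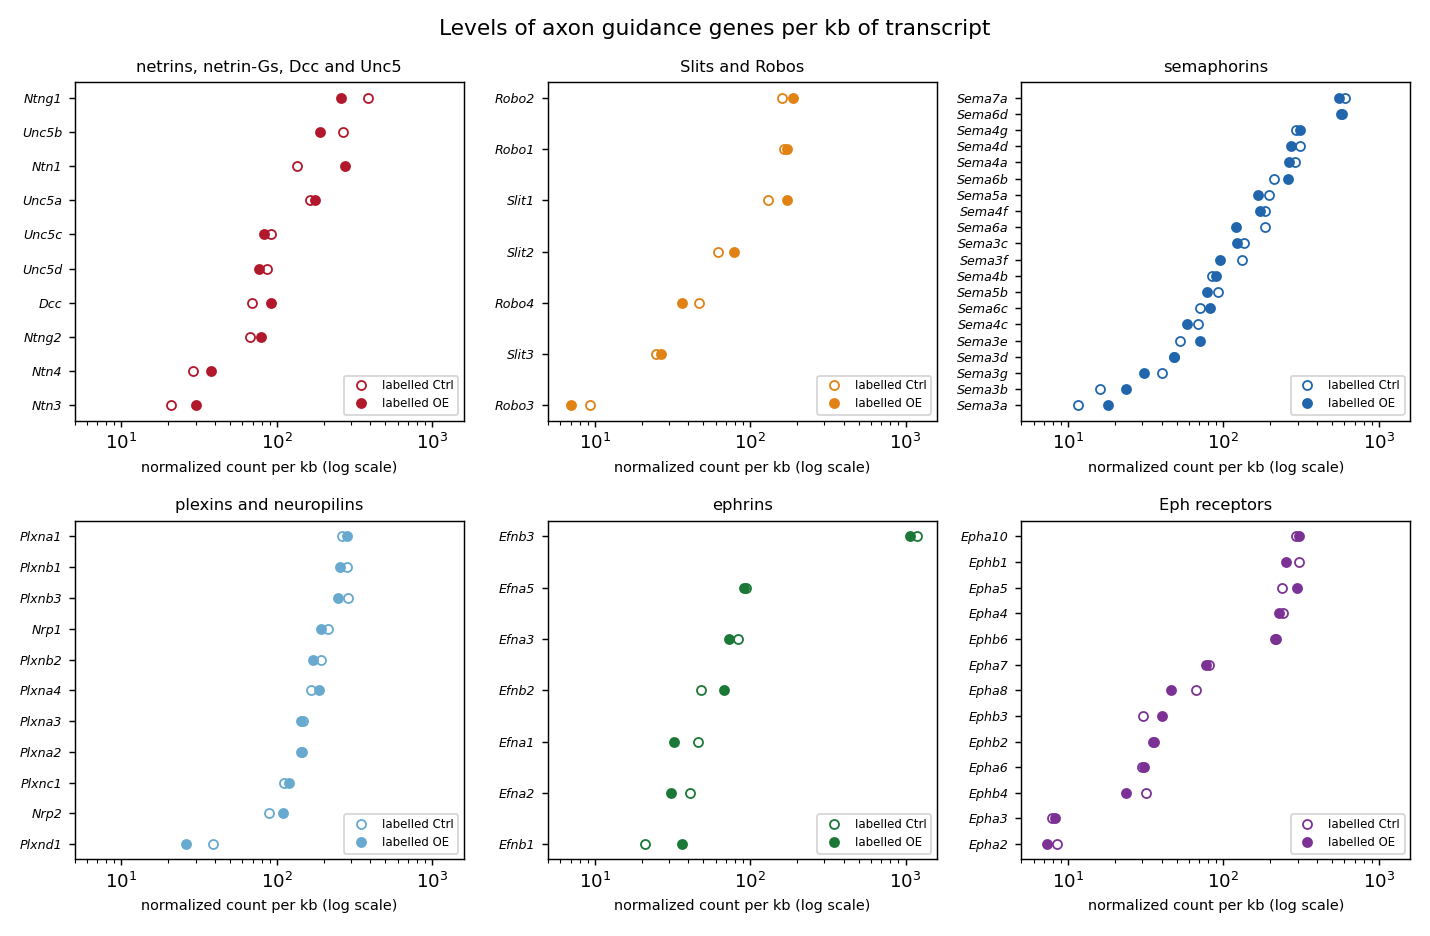
Normalized counts per kb of transcript (x axis, log scale) for each guidance gene in its family, with open circles for the Ctrl-labelled and filled circles for the OE-labelled library. In the Ctrl-labelled library ephrins span 21.2 (Efnb1) to 1178 (Efnb3), and in its family Ntn1 goes from below Unc5a and Unc5b to above both.

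Transcripts of guidance genes are long, with a median of 5.07 kb against 3.47 kb over all compared genes that had a length. Over all genes, transcripts of at least 5 kb had a median log2 fold change of -0.037 and shorter ones 0.019. Guidance genes of at least 5 kb had a median of 0.010 (36 genes), and shorter ones -0.12 (32 genes). The order between long and short transcripts was thus the reverse of that over all genes.

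Other genes of the pathway came from lists of ligands, receptors and cytoplasmic effectors. Of 25 further guidance ligands, receptors and adhesion molecules, 6 (24%) were higher and 2 (8%) lower by more than log2 0.2. The matching shares of the whole gene set were 17.9% and 16.6%, and the list's median was 0.036. The highest were Draxin, a netrin-binding repellent with only 9 and 25 counts (1.12, interval 0.014 to 2.44), Rgmb (0.36, interval 0.21 to 0.51) and Flrt3, a ligand of Unc5 receptors (0.25, interval 0.076 to 0.42). The lowest were Rtn4r, the Nogo receptor (-0.62, interval -0.99 to -0.26), Nell2, a ligand of Robo3 (-0.27, interval -0.35 to -0.20), and Dscaml1 (-0.19).

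Of 50 cytoplasmic proteins that carry guidance signals to the cytoskeleton, 3 (6%) were higher and 9 (18%) lower, with a median of -0.017. The lower share was near the 16.6% of all genes, and the higher share was under their 17.9%. Dpysl3 (0.42, interval 0.25 to 0.59), Vav2 (0.38, interval 0.16 to 0.61) and Vasp (0.31, interval 0.037 to 0.58) were highest. Tiam1 (-0.35, interval -0.50 to -0.21), Kalrn (-0.33, interval -0.43 to -0.23) and Vav3 (-0.32, interval -0.52 to -0.12) were lowest. In these effectors 76.0% of the genes were within log2 0.2, against 47.1% of the guidance genes and 65.5% of all genes. That share also depends on the counts per gene, which were not matched between these sets.

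**Figure D4:**
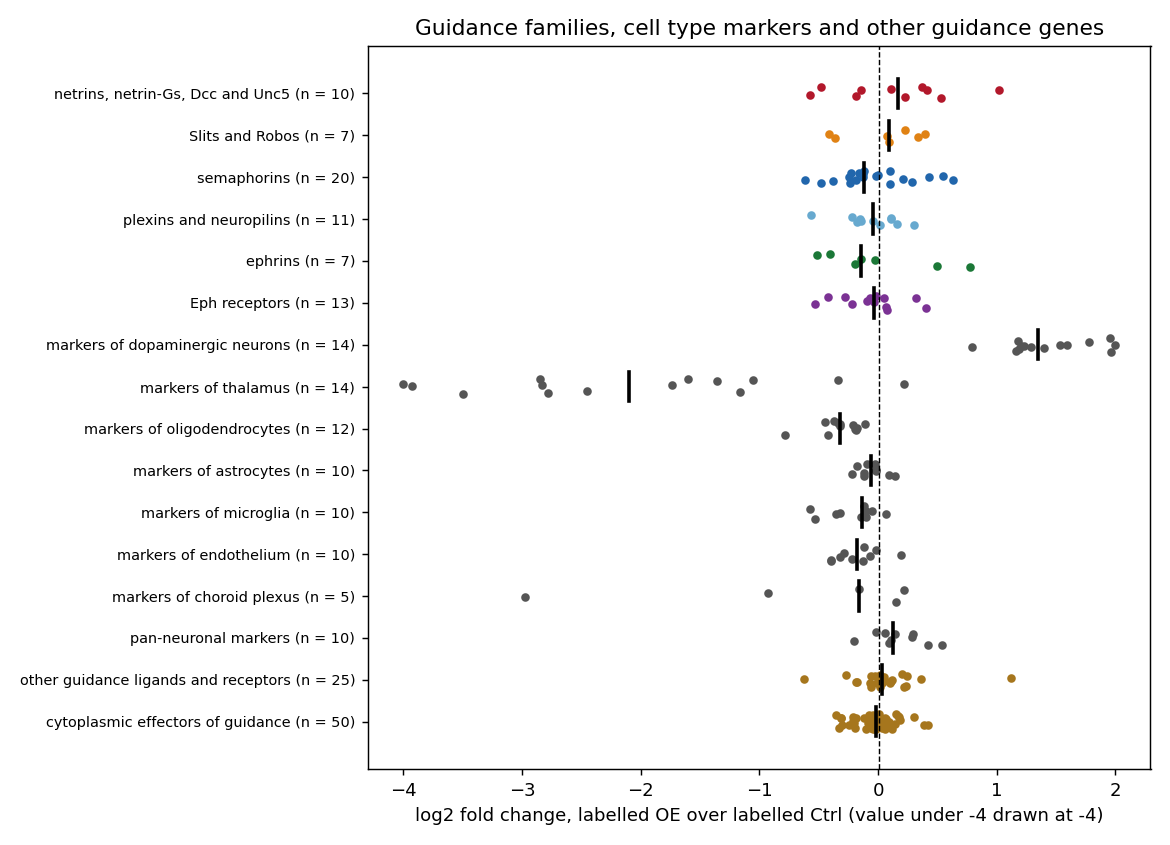
Log2 fold change (x axis, OE-labelled over Ctrl-labelled library) of each gene in the guidance families, the cell type marker lists and the lists of other guidance genes, with a black bar at each list's median and a dashed line at the median of all genes. Gbx2, below -4, is drawn at -4. The medians of the guidance families lie between -0.14 and 0.17, and those of DA and thalamus markers at 1.35 and -2.10.

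The remaining marker lists had medians nearer 0 than those of DA neurons and thalamus. Astrocyte markers had a median of -0.060, from -0.22 (Aqp4) to 0.14 (Gjb6), and microglia markers -0.13, from -0.57 (Csf1r) to 0.065 (Aif1). Endothelial markers ran from -0.40 (Kdr) to 0.19 (Ly6c1), and oligodendrocyte markers from -0.78 (Opalin) to -0.11 (Myrf). Pan-neuronal markers had a median of 0.12, from -0.21 (Rbfox3) to 0.54 (Nefl). Of the choroid plexus markers 5 of 8 could be compared, with a median of -0.16, from -2.97 (Ttr) to 0.22 (Clic6).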

How the data were processed

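Ventral midbrain RNA was sequenced as 1 library per genotype. The authors had stranded libraries of polyadenylated RNA made and run through a company pipeline, and deposited expected counts, the estimated reads per gene from RSEM, unscaled. The submitters' processing notes name the genome mm10 (GRCm38). The aligner, RSEM version and annotation are not given in the sources used here. Columns were matched to groups by the number in the sample title. Of the 71 guidance genes, 2 (Sema3b and Ntng2) have counts that are not whole.

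Counts were scaled with TMM (edgeR 4.0.16, R 4.3.3) over the whole table. Normalized counts refer to the geometric mean of both scaled library sizes. Before log2 fold changes were taken, 0.5 was added to each normalized count, and genes averaging under 10 counts were left out of lists. Exact Clopper-Pearson 95% intervals were put on the split of the rounded counts (scipy 1.17.1), and an exact conditional interval on the odds ratio was used for 18 pairs of members chosen after their values were seen. Both cover counting error only. With 1 library per group, no test and no p-value was computed.

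Transcript lengths are the longest GENCODE M21 transcript of each symbol (13874 of 15246 genes). Promoter sequences and gene positions are from RefSeq (GRCm38.p6). Members averaging 50 counts or more, with a log2 fold change past 0.5 and an interval clear of 0, and every netrin, Slit, Robo, Unc5, Dcc and neuropilin gene, were described in full. So were the most abundant gene of each family, the 3 highest and 3 lowest genes of the other guidance lists, and the highest and lowest markers. Other members given with values were chosen after their values were seen. The members, lists and markers were chosen with earlier results of these data known. The alternatives were other scalings (among them DESeq2 1.42.0 size factors), a pseudocount of 5, other count minimums, log2 1, a 99% interval and the reverse direction. The interval method was tested on Poisson counts simulated at the real depths. These held no variation between mice or pieces of tissue, so that test concerns counting error alone. Figures were drawn with matplotlib 3.10.9.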

Additional observations from a re-analysis of the deposited data

How the results depend on the processing

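No paired analysis was possible because there is 1 library in each group. Under other scalings, a pseudocount of 5 and other count minimums, the median of guidance genes stayed between -0.047 and -0.018. The medians of all 6 families kept their sign. At a minimum of 100 counts, Slits and Robos went from 0.092 to 0.16 and ephrins from -0.14 to -0.085. Each of the 25 genes recomputed singly kept its sign under all 4 of its alternatives. That could hardly turn out otherwise, since a scaling moves all genes nearly alike and the value nearest 0, Robo1 at 0.074, lay beyond such shifts. Ntn1 ranged from 1.01 to 1.04 and Nr2f2 from -1.08 to -1.06. The numbers higher and lower by more than log2 0.2 kept within 1.5 times of 18 and 18, apart from the threshold of log2 1, which by construction left 1 gene higher (Ntn1) and 0 lower. The median of all genes lay between -0.011 and 0.018 under every scaling tried.

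Read as Ctrl-labelled over OE-labelled library, the direction in which Nr2f2 is higher, each sign turns by construction: Nr2f2 1.07, guidance genes 0.031, ligands 0.014, receptors 0.042, semaphorins 0.12, plexins and neuropilins 0.042, ephrins 0.14, Eph receptors 0.035, Slits and Robos -0.092 and the netrin family -0.17. Depth limits the 8 compared genes averaging under 100 counts. The intervals of Epha2, Epha3, Robo3, Efna1 and Efna2 included 0, and those of Efnb1, Sema3a and Sema3b were wide but above 0. At a minimum of 100 counts these 3 dropped out, and the number higher with an interval above 0 went from 16 to 13. The number lower with an interval below 0 stayed at 13 there. With a 99% interval 13 genes were higher and 9 lower, and with scaling by total counts 15 were higher and 16 lower.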
